A study of Homo sapiens with 6 samples.

Results

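The comparison described here sets the 3 arrays labelled miR26a against the 3 arrays labelled empty, paired by cell line, and covers the genes whose RNA moved in 1 direction in every line. It takes in 6 of the 6 arrays of the series. Namalwa, Raji and Ramos are established cell lines from Burkitt lymphoma, a fast-growing cancer of B cells driven by a translocated MYC gene. Each line gave 1 array of transfected cells labelled empty and 1 of transfected cells labelled miR26a. Both groups are listed with doxycycline at 0.5 µg/ml for 72 h, which switched on the microRNA, so the drug is shared by the controls as listed. Cells of both groups grew in the same RPMI medium with fetal calf serum. The labels do not say what the empty cells carried, or whether a line stands for 1 clone or for a pool, and they name no further cultures. The p-values therefore rest only on how far paired changes varied between these 3 lines. For each gene that spread was drawn toward a value pooled over all genes tested, and the SEs and intervals below share this. The spread between lines may hold both technical variation and differences in response between lines, which cannot be told apart. The title of the series names EZH2, the methyltransferase of Polycomb repressive complex 2, as a gene under miR-26a. The question followed here is which other RNAs and functions differed with miR26a in all 3 lines.

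A microRNA is a short RNA that guides an Argonaute protein to messenger RNAs, mostly through pairing of its seed near the 5′ end, and lowers their stability or translation. The RNA of a direct target is therefore expected to be lower, but RNAs further down the chain can go either way. miR-26a is known as a repressed microRNA in MYC-driven lymphoma. Its mature sequence is shown first because the seed defines which messages it can pair with. RefSeq (GRCh38.p14) gives the same mature miR-26a-5p at MIR26A1, chr3:37969413-37969434 on the plus strand, and at MIR26A2, chr12:57824658-57824679 on the minus strand. The related miR-26b-5p lies at MIR26B, chr2:218402657-218402677 on the plus strand. Capitals mark the seed, bases 2 to 8 from the 5′ end.
hsa-miR-26a-5p: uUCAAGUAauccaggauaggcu
hsa-miR-26b-5p: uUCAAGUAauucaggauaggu
Both carry the seed UCAAGUA, and over shared positions, counted from 1 at the 5′ end, they differ by C11U and C21U. In the RefSeq table hsa-miR-1297 and hsa-miR-4465 share this seed. The arrays measure messenger RNA, and no level of the mature microRNA was analysed here.

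All levels below are log2 intensities after RMA, and a change is the miR26a level minus the empty level of the same line, so that 1 unit is a doubling. A gene is represented by its brightest probe set, and 12012 genes with a mean level of at least 4.42, the median of all probe sets other than controls, were tested. Of these, 2360 (19.6%) were lower in all 3 lines and 1859 (15.5%) were higher in all 3, together 4219 genes (35.1%). These shares are the background against which every count of members below is read. The mean of all probe sets of a gene, given for some genes below, also takes in its probe sets under the minimum of 4.42. Under limma with the line as a block and Benjamini-Hochberg adjustment over all 12012 genes, 0 genes (0%) passed an adjusted p of 0.05, 79 (0.658%) passed 0.1, and 1548 (12.9%) had an unadjusted p under 0.05. Of the last, 880 (7.33%) were lower and 668 (5.56%) higher. No gene is therefore said to have risen or fallen, and "lower" and "higher" describe the measured arrays. The balance of directions depended on the scaling: with cyclic loess between the arrays 2004 genes were lower and 2300 higher in all lines, so that the lower share of genes with 1 sign went from 55.9% to 46.6%, and that of genes with an unadjusted p under 0.05 from 56.8% to 46.7%.

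Changes were small. Genes with 1 sign in all lines and a mean change of at least 0.5 numbered 86 lower (0.716%) and 69 higher (0.574%). The brighter array of each pair reached the level minimum for 2279 of the genes lower and 1758 of those higher in all lines. In their least responsive line, 142 of these lower and 82 of these higher genes still moved by at least 0.3. By at least 0.5 it was 20 and 6, and by at least 0.75 it was 0 in either direction. Ramos moved least, with 4 genes at least 1 log2 higher and 1 at least 1 log2 lower, against 31 and 24 in Namalwa and 25 and 10 in Raji.

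Array medians lay between 4.36 and 4.44. The Namalwa empty array stood apart in a sign of RNA quality, since the gap between the 3′ and 5′ ACTB controls was 3.58 log2 there and 1.80 to 1.98 elsewhere. Counts without Namalwa are given beside some of the lists below, not all. In Raji and Ramos alone 3636 genes (30.3%) were lower in both and 3069 (25.5%) higher in both. The B-cell identity of the lines was visible: 9 of 9 measured B-cell markers of 10 listed had a mean above the level minimum, with a summed level of 73.7 to 81.7 in the empty arrays and 74.1 to 82.1 in the miR26a arrays. Markers of T and NK cells were above it for 4 of 11, with sums of 44.4 to 46.7 and 44.1 to 46.9, and those of monocytes and granulocytes for 3 of 10, with sums of 35.5 to 40.6 and 36.0 to 42.8. In bulk RNA, a lower level in every cell and a smaller share of cells that express a gene cannot be told apart.

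The genes named first are the 14 in each direction with the largest change in their least responsive line, under the same level condition. The rule chose them for the size of that change, so their values are a description, and all 28 had an adjusted p of 0.073 to 0.0826 (limma). The last higher gene named, ATOSA, had a weakest change of 0.463 and the next, P2RY10, 0.459. At the lower end BLM had 0.542 and NCAPG, the first not named, 0.538.

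The lower genes were led by POLR3G, a subunit of RNA polymerase III, the enzyme that makes transfer RNA and other short RNAs. Its level was 7.23, 8.06 and 7.69 in the empty arrays of Namalwa, Raji and Ramos and 6.12, 7.38 and 6.95 in the miR26a arrays. Its mean paired difference of -0.84 (SE 0.12, 95% interval -1.11 to -0.58), or 1.80-fold, was the largest in size among the 14 by the brightest probe set. With the mean of all probe sets it was -0.44, smaller in size than for most of the other lower genes named. KIF21B had -0.75, POLQ -0.71 and BLM -0.58 by that measure, and only SLC7A11, DIAPH3 and GINS2 had smaller changes than POLR3G. Every miR26a array lay below the empty array of its own line, although the Raji miR26a array lay above the Namalwa empty one. POLR3GL, the paralog that takes the same place in the enzyme, had a change of 0.12 (0.07, 0.05 and 0.24). Of the other 24 tested genes of the polymerase III machinery none had a mean change beyond 0.22 in either direction, and the whole list of 26 had 6 members lower and 2 higher in all lines, with a median of -0.01.

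FRAT2, which binds GSK3 and favours WNT signalling, was at 7.56, 6.13 and 7.53 without and 6.78, 5.30 and 6.92 with miR26a, a change of -0.74 (SE 0.10). The WNT list did not move with it: of 24 tested members 5 were lower in all lines, 1 was higher in all lines, and the median was 0.00. KIF21B, a kinesin that acts on microtubule growth, went from 6.67, 6.67 and 7.05 to 5.68, 5.97 and 6.46, a change of -0.75 (SE 0.11). Its 3 miR26a arrays all lay below its 3 empty arrays. DFFB, the nuclease that cuts DNA in apoptosis, went from 5.45, 5.02 and 6.01 to 4.76, 4.45 and 5.43, a change of -0.61 (SE 0.10). C1orf216 changed by -0.64 (SE 0.10), with 2 of its 6 arrays below the level minimum.

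Most of the other 9 lower genes named act in DNA replication, recombination or division. CDC6, which loads the replicative helicase at origins, stood at 7.56, 8.08 and 7.37 in the empty arrays and 6.66, 7.52 and 6.64 in the miR26a arrays, a change of -0.73 (SE 0.11). GINS2, part of the active helicase, was at 9.19, 9.36 and 9.31 without and 8.57, 8.80 and 8.77 with miR26a, a change of -0.58 (SE 0.10). The groups of GINS2 did not overlap by this probe set, but the mean of all its probe sets gave a change of -0.21. POLQ, the polymerase of error-prone end joining, went from 8.15, 7.86 and 8.18 to 7.46, 7.19 and 7.62, with no overlap of the groups and a change of -0.64 (SE 0.10). EXO1, a nuclease that resects broken ends, was at 7.52, 7.52 and 7.97 and then 6.97, 6.83 and 7.25, again without overlap and with a change of -0.66 (SE 0.10). BLM, the helicase that resolves recombination intermediates, changed by -0.58 (SE 0.10) and DDIAS, which limits apoptosis after DNA damage, by -0.61 (SE 0.10). NCAPH, the kleisin of condensin I, stood at 7.24, 6.60 and 7.37 and then 6.66, 5.98 and 6.79. Its 3 changes, -0.58, -0.62 and -0.57, were nearly equal, while the levels of the lines differed more than the groups did. DIAPH3, a formin that builds actin filaments in division and movement, changed by -0.69 (SE 0.11), or -0.34 with the mean of all probe sets. SLC7A11, the cystine importer, is of another kind. It was at 5.92, 8.17 and 7.06 without and 4.97, 7.61 and 6.35 with miR26a, a change of -0.74 (SE 0.11). Of its 2 other probe sets above the level minimum, 1 moved the other way. The mean of all probe sets of the gene, at any level, gave -0.36.

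**Figure D1:**
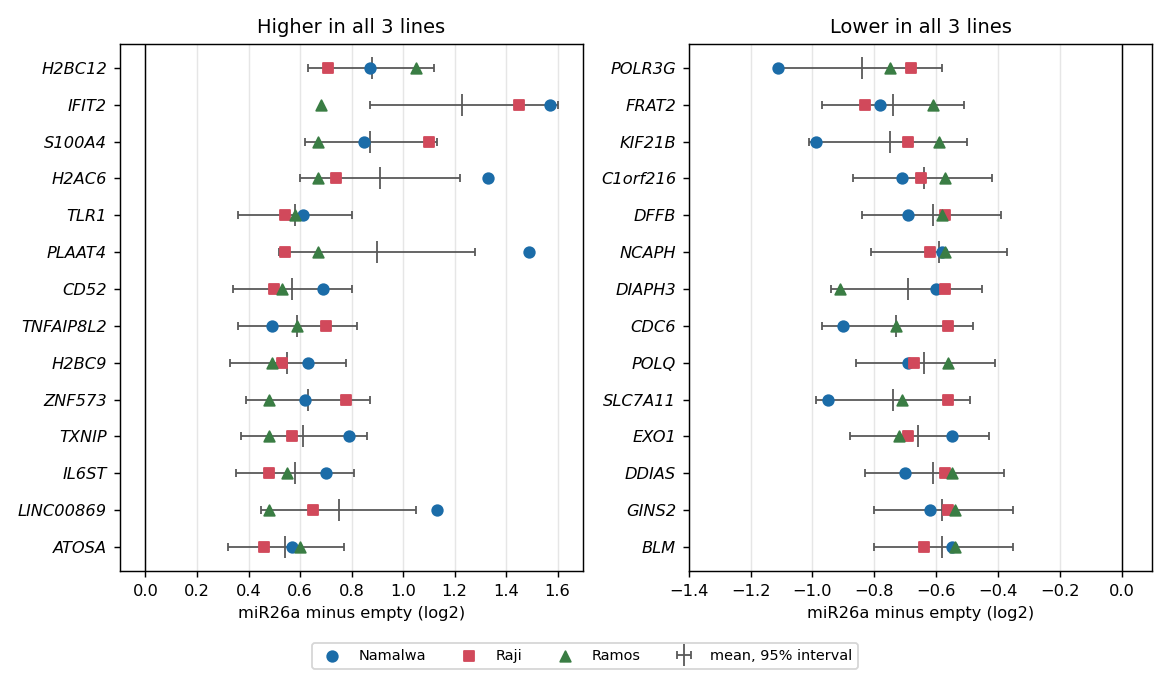
Change of each of the 28 named genes in each line (points, miR26a minus empty, log2) with the mean and its 95% interval from limma (grey bars). The 14 higher genes have mean changes of 0.54 to 1.23 and the 14 lower genes of -0.58 to -0.84. Namalwa lies farthest out for most of the 28, with a wide gap for POLR3G, H2AC6, PLAAT4 and LINC00869.

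The higher genes were led by H2BC12, which encodes a core histone H2B. It stood at 9.0, 9.58 and 8.69 in the empty arrays and 9.87, 10.29 and 9.74 in the miR26a arrays, a change of 0.88 (SE 0.11, 95% interval 0.63 to 1.12) and the smallest p of all genes tested. All miR26a arrays lay above all empty arrays. H2AC6, an H2A gene, went from 5.70, 5.83 and 4.56 to 7.03, 6.57 and 5.24, a change of 0.91 (SE 0.14). H2BC9 changed by 0.55 (SE 0.10), without overlap of its groups (4.97, 5.30 and 5.25 against 5.60, 5.84 and 5.74). Histone genes are near-identical copies, so a signal may come from more than the gene named.

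IFIT2, an interferon-induced protein that restrains viral messages, was at 5.31, 5.28 and 5.78 without and 6.88, 6.73 and 6.46 with miR26a. The groups did not overlap, and the change of 1.23 (SE 0.16, 95% interval 0.87 to 1.60) was a 2.35-fold difference, larger in Namalwa (1.57) and Raji (1.45) than in Ramos (0.68). PLAAT4, a phospholipid-modifying enzyme induced by retinoids and interferon, was at 5.08, 4.89 and 5.29 and then 6.56, 5.42 and 5.96, a change of 0.90 (SE 0.17) that was largest in Namalwa. TLR1, which with TLR2 senses bacterial lipopeptides, changed almost equally in the 3 lines, by 0.61, 0.54 and 0.58 (from 5.99, 6.12 and 5.47 to 6.60, 6.66 and 6.05). TNFAIP8L2, which dampens signalling from Toll-like and antigen receptors, went from 5.26, 4.57 and 5.03 to 5.75, 5.28 and 5.62, a change of 0.59 (SE 0.10). IL6ST, the signalling chain shared by receptors of the interleukin-6 family, changed by 0.58 (SE 0.10), with Raji far above the other lines in both groups.

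Genes of the lymphocyte surface and of growth restraint were also among them. S100A4, a calcium-binding protein linked to cell movement, went from 9.49, 6.55 and 7.88 to 10.34, 7.64 and 8.55, a change of 0.87 (SE 0.11). The lines differed by more than this at the start, and the direction was shared. CD52, a small glycoprotein that covers lymphocytes, was at 9.38, 7.75 and 8.62 without and 10.06, 8.25 and 9.15 with miR26a, a change of 0.57 (SE 0.10). TXNIP, which binds thioredoxin and limits glucose uptake, stood at 9.07, 8.51 and 8.76 and then 9.86, 9.08 and 9.24, so the groups did not overlap by a narrow margin. Its change was 0.61 (SE 0.11). The zinc-finger gene ZNF573, the long noncoding RNA LINC00869 and ATOSA changed by 0.63, 0.75 and 0.54. With the mean of all probe sets ZNF573 had 0.35 and ATOSA 0.38, although neither had another probe set at the level minimum. For the 28 named genes, 12 other probe sets in 10 genes reached the level minimum and 11 of them had the direction of the brightest one. This counts direction only, in genes chosen for large changes, and no share over all genes was counted. With the mean of all probe sets 26 of the 28 were tested, with changes of 0.21 (GINS2) to 0.92 (IFIT2) in size.

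**Figure D2:**
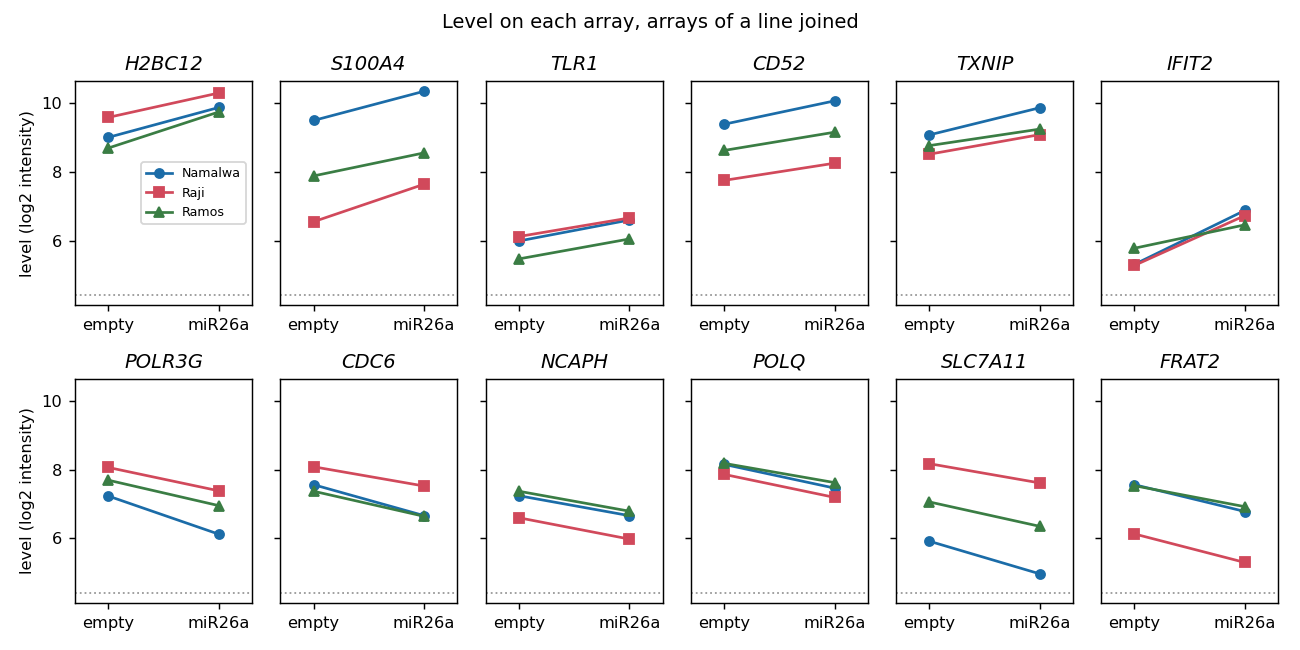
Level of 12 named genes (log2 intensity after RMA) on each array, with the 2 arrays of a line joined and the level minimum of 4.42 dotted. Every line slopes up in the top row and down in the bottom row, and for S100A4, CD52 and SLC7A11 the lines differ more from each other than the groups do.

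The limits of these calls were shared by the 28 genes. Without Namalwa their mean changes were 0.51 to 1.06 in size, against 0.54 to 1.23 with all lines. PLAAT4 went from 0.90 to 0.60, LINC00869 from 0.75 to 0.57 and H2AC6 from 0.91 to 0.71. Some were larger without it, such as DIAPH3 (-0.74) and EXO1 (-0.71). Without Raji all 28 passed an adjusted p of 0.05 (0.00921 to 0.048), without Ramos 9 did, and without Namalwa 0 (all at 0.32, limma with Benjamini-Hochberg adjustment). With an intensity trend and robust prior 27 passed, and over all alternatives tried their adjusted p ran from 1.62e-05 to 1.00.

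Functions were followed with gene lists, each described by its members lower and higher in all lines and its median change, beside -0.01 for all genes tested. Of the lists counted, lower members were most frequent among genes of chromosome segregation. Of 30 tested genes of the spindle, its midzone and cytokinesis, 27 were lower in all lines (90.0%, against 19.6% of all genes) and 0 higher, and 26 had an unadjusted p under 0.05 (limma). The median change was -0.38. DLGAP5, which bundles kinetochore fibres, went from 8.71, 8.44 and 7.35 to 8.19, 7.79 and 6.86, and KIF15, a plus-end motor of the spindle, from 7.68, 6.17 and 7.58 to 6.93, 5.67 and 7.12. The motors KIF2C, KIF14, KIF4A and KIF11 changed by -0.55, -0.48, -0.45 and -0.33. The 3 members outside the lower group were KIF23 (0.04 in Namalwa), CKAP2 (0.05 in Ramos) and CKAP5 (0.43 in Namalwa).

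Of 29 centromere and kinetochore genes 25 were lower (86.2%) and 0 higher in all lines, with a median of -0.39. The lower members spanned the complex from its outer to its inner face. All 4 NDC80 complex members, which grip microtubules, had similar changes: NUF2 -0.57, SPC25 -0.51, NDC80 -0.48 and SPC24 -0.40. The Ska subunits SKA3 and SKA1, which track microtubule ends, had -0.52 and -0.50, and CENPI and CENPU of the inner network -0.52 and -0.46. CENPA, the histone H3 variant that marks centromeres, changed by -0.15 and CENPC, which binds it, by -0.08. Among 23 genes of the spindle checkpoint and of mitotic kinases 19 were lower (82.6%) and 1, MAD1L1, higher, with a median of -0.37. BUB1 changed by -0.54 (-0.33 with the mean of all probe sets), TTK by -0.50, AURKA by -0.45, AURKB by -0.43 and PLK1 by -0.27. Without Namalwa, 29 of the 30 spindle genes, 26 of the 29 kinetochore genes and 21 of the 23 checkpoint genes were lower in both other lines, against 30.3% of all genes.

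Condensin and cohesin members had a range of changes. The combined list had 17 of 24 members lower (70.8%) and a median of -0.19. NCAPG2 (-0.61), NCAPH (-0.59), NCAPG (-0.57), SMC2 (-0.42) and NCAPD3 (-0.39) belong to condensin, which compacts mitotic chromosomes. The condensin subunit NCAPD2 had a smaller change of -0.29, or -0.18 without Raji. The cohesin ring subunits SMC1A, RAD21 and SMC3 had -0.23 (-0.13 without Namalwa), -0.17 and 0.01, and its loader NIPBL 0.10, while CDCA5, which protects cohesin until mitosis, had -0.52. The difference between the complexes was not tested.

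DNA replication followed. Of 28 genes of origin licensing and firing 23 were lower (82.1%) and 0 higher, with a median of -0.32. CDT1, which loads the helicase with CDC6, stood at 7.83, 7.49 and 7.95 without and 7.21, 6.97 and 7.25 with miR26a. Its groups did not overlap by this probe set, and its change was -0.61, or -0.43 with the mean of all probe sets. Its inhibitor GMNN was also lower, at -0.41. The origin subunits differed: ORC1 and ORC6 changed by -0.60 and -0.54, ORC3 by -0.27, ORC2 and ORC5 by -0.09 each and ORC4 by 0.09. The 6 helicase subunits MCM2 to MCM7 were each lower in every line, with mean changes of -0.31 to -0.23. Without Namalwa the count of lower licensing genes was also 23 of 28.

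At the fork, 25 of 32 genes were lower (78.1%) and 2 higher, with a median of -0.33. WDHD1, which ties helicase to polymerase, changed by -0.66 (-0.44 with the mean of all probe sets). CLSPN, the checkpoint mediator, changed by -0.60, and the clamp loader subunits RFC4 and RFC3 by -0.53 and -0.51. The sliding clamp PCNA changed by -0.44. The 2 higher members, POLD4 (0.41) and POLE4 (0.27), are the small accessory subunits of polymerases delta and epsilon, whose large subunits POLD1 and POLE changed by -0.17 and -0.15. Without Namalwa POLE4 had 0.18 and POLE -0.06, and without Raji POLD1 had -0.07. For nucleotide supply the share was smaller, 12 lower and 0 higher of 25 (48.0%), with a median of -0.18. The ribonucleotide reductase subunits RRM1 and RRM2 changed by -0.38 and -0.37 and thymidylate synthase (TYMS) by -0.32. Enzymes that serve purine synthesis were mixed. PAICS, ATIC and IMPDH2 had -0.03, -0.02 and 0.09. PRPS2 had -0.52 (-0.28 without Namalwa), IMPDH1 -0.26 (-0.05 without Raji) and PFAS -0.23 (-0.06 without Namalwa).

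Of 27 genes of homologous recombination and the Fanconi pathway 22 were lower (81.5%) and 1, ATR (0.07), was higher, with a median of -0.35. BRCA1 changed by -0.56, RAD54L by -0.49, BRIP1 by -0.42 and FANCI by -0.39. Mismatch and base excision repair had 5 of 15 lower (33.3%) and a median of -0.07, led by MSH6 (-0.30) and the uracil glycosylase UNG (-0.26, or -0.17 without Namalwa). The difference between the repair lists was not tested. The direction of MSH6 depended on the probe set, since the mean of all its probe sets gave 0.01.

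Of 28 genes of chromatin assembly and maintenance methylation 21 were lower (75%), 14 were lower with an unadjusted p under 0.05 (limma), and 0 higher, with a median of -0.23. CHAF1A and CHAF1B, subunits of the chaperone that loads histones behind the fork, changed by -0.70 and -0.43, HMGA1 by -0.51 and the methyltransferases DNMT1 and SUV39H1 by -0.33 and -0.32. With the mean of all probe sets CHAF1A had -0.44 and HMGA1 -0.24, and the other probe set of HMGA1 moved the opposite way. Of 18 tested replication-dependent histone genes (of 58 listed) 1 was lower, H1-5 (-0.19), and 7 were higher (38.9%, against 15.5% of all genes), with a median of 0.14. The line medians were 0.41 (Namalwa), 0.10 (Raji) and 0.07 (Ramos), and without Namalwa 8 were higher and 5 lower. H2BC6 (0.50) and the linker histone H1-2 (0.43, or 0.22 without Namalwa) were higher in all lines. These messages mostly lack a poly(A) tail, and the labelling kit starts from an oligo(dT) primer, and how far the probe sets read the unprimed messages was not tested.

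Regulators of the cycle were mixed. Of 30 cyclins, CDC25 phosphatases, kinases and parts of the anaphase-promoting complex 15 were lower (50%) and 0 higher, with a median of -0.18. Cyclin E2 (CCNE2, -0.65) and SKP2 (-0.64), which marks the inhibitor p27 for destruction, had the largest changes, and CDC25A, CCNB1 and CCNA2 had -0.45 (-0.26 with the mean of all probe sets), -0.42 and -0.38. CDK4 and CDC27 had 0.11 and -0.01. Among 19 E2F, MYB and pocket protein genes 8 were lower (42.1%) and 1, E2F5 (0.26), higher. MYBL1 (-0.61), E2F2 (-0.47), FOXM1 (-0.47) and E2F8 (-0.46), which drive genes of S phase and mitosis or, for E2F8, repress them, were the most changed, whereas RB1 and E2F4 had -0.02 and 0.03. The other probe set of MYBL1 moved the opposite way, and the means of all probe sets were -0.34 for MYBL1 and -0.25 for E2F2. The MYC network list had 3 lower and 2 higher of 23 (median -0.00), and MYC itself had changes of 0.07, -0.10 and 0.26.

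**Figure D3:**
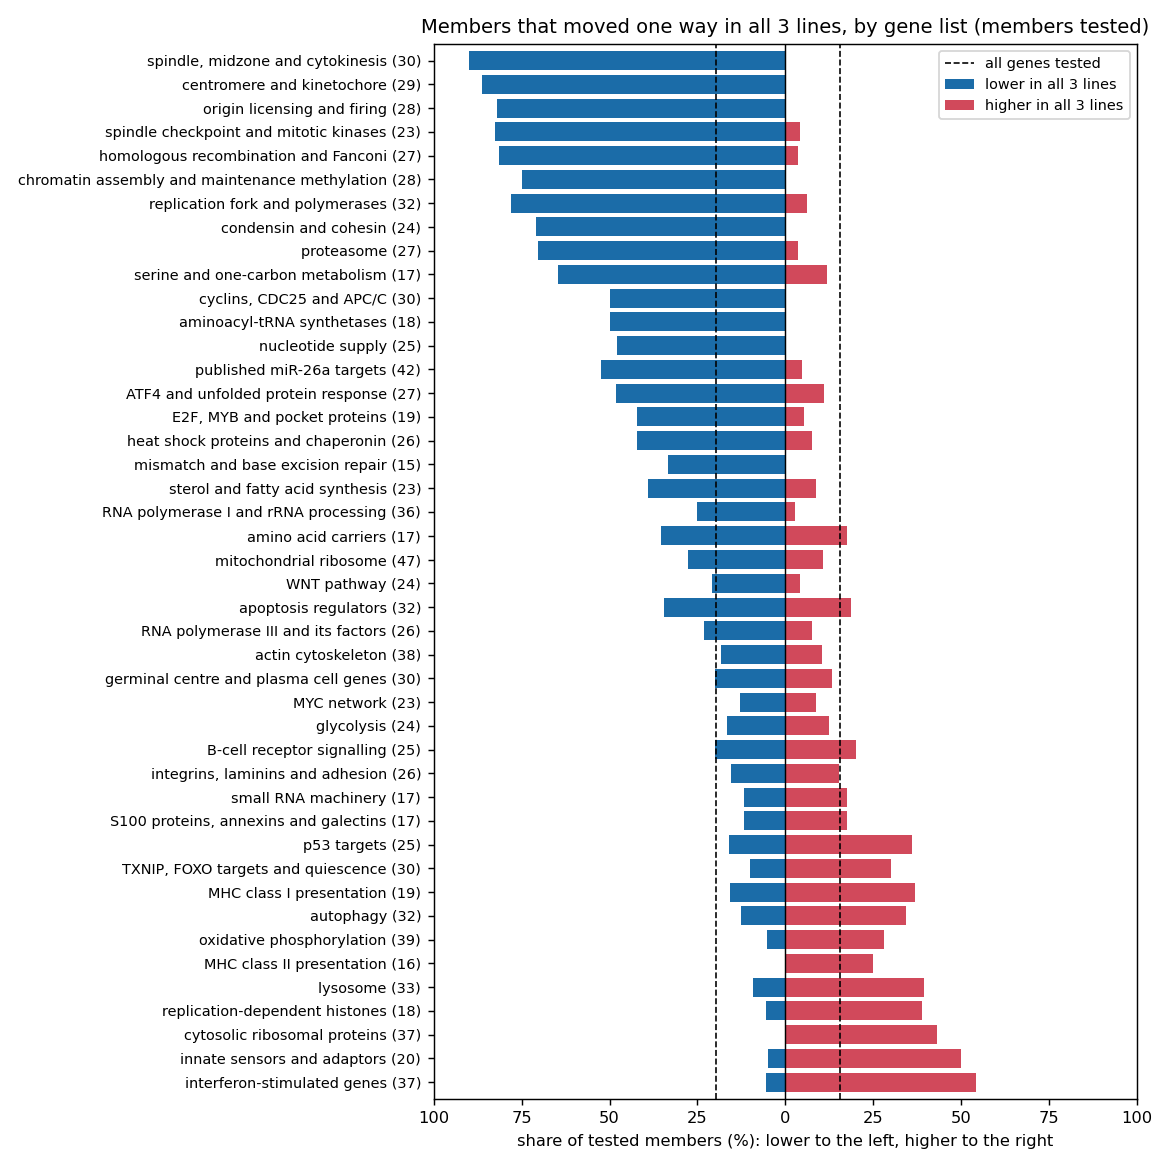
Share of the tested members of each gene list (%) that were lower (blue, to the left) or higher (red, to the right) in all 3 lines, with the shares among all genes tested dashed (19.6% and 15.5%). The 6 lists with the most lower members run from 78.1% (replication fork) to 90.0% (spindle), and interferon-stimulated genes reach 54.1% higher.

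Lists of amino acid and lipid supply were also counted. Of 17 genes of serine and one-carbon metabolism 11 were lower (64.7%) and 2 higher, with line medians of -0.33 (Namalwa), -0.11 (Raji) and -0.12 (Ramos), and the same counts without Namalwa. PSAT1, an enzyme of serine synthesis, went from 9.81, 10.10 and 10.70 to 9.06, 9.64 and 10.18, and CTH, which makes cysteine, changed by -0.56. PHGDH, which opens serine synthesis, changed by -0.34 and the mitochondrial MTHFD2 by -0.26 (-0.16 with the mean of all probe sets). Among 17 amino acid carriers 6 were lower and 3 higher, but 7 lower and 6 higher without Namalwa, and the line medians were -0.28, -0.03 and -0.12. SLC7A11, SLC7A5 and SLC7A1, which import cystine, large neutral and cationic amino acids, had -0.74, -0.42 and -0.35 (for SLC7A1 -0.14 with the mean of all probe sets), while SLC43A2 and the lysosomal SLC38A9 had 0.29 and 0.24. Aminoacyl-tRNA synthetases had 9 of 18 lower (50%) and 0 higher, with WARS1 (-0.43), YARS1 (-0.40) and IARS1 (-0.32) in front and a median of -0.12. Of 27 genes of the ATF4 and unfolded protein responses 13 were lower (48.1%) and 3 higher. ASNS, which makes asparagine, changed by -0.48 and CEBPG by -0.44, while ATF4 itself had 0.08 in Namalwa, -0.39 in Raji and -0.20 in Ramos. Of 23 genes of sterol and fatty acid synthesis 9 were lower (39.1%), and MSMO1, a sterol demethylation enzyme, had by far the largest change, -0.73, against -0.38 for HMGCS1 and -0.33 for FASN, whose other probe set moved the opposite way (mean of both -0.16).

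The proteasome showed many members with very small changes. Of 27 tested subunits 19 were lower (70.4%) and 1, PSMB5, higher, yet the median was -0.13 and 2 had an unadjusted p under 0.05 (limma). The line medians for Namalwa, Raji and Ramos were -0.04, -0.12 and -0.20. With cyclic loess between arrays 13 were lower (48.1%, against 16.7% of all genes under that scaling). Without Namalwa 24 were lower and 1 higher. PSMD12 (-0.25), PSMC1 (-0.23) and PSMD2 (-0.21) belong to the regulatory particle. Cytosolic ribosomal proteins had the opposite sign and were as small: 16 of 37 were higher (43.2%) and 0 lower, with a median of 0.09 and line medians of 0.16, 0.02 and 0.08. In Raji and Ramos alone 18 were higher and 0 lower. RPS9 (0.33, or 0.15 without Namalwa and 0.14 with the mean of all probe sets) and RPS25 (0.16) were among them, and RPS12 (0.09) turned to -0.01 with the mean of all its probe sets.

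Published targets of miR-26a, EZH2 among them, were counted as a list, and seed sites in their transcripts were not analysed here. Of 42 tested 22 were lower (52.4%) and 2 higher, with a median of -0.24. Namalwa, Raji and Ramos had medians of -0.37, -0.10 and -0.17, and without Namalwa 23 were lower and 6 higher. Several of its members, such as CDC6, CCNE2 and CHEK1, are also in the lists of the cell cycle. Outside those lists STRADB, a pseudokinase that activates LKB1, went from 5.92, 7.64 and 5.66 to 4.91, 7.18 and 4.96 and changed by -0.72. LOXL2, a lysyl oxidase, changed by -0.67, with levels of 7.77 and 7.17 in Raji and below the level minimum on the 4 other arrays. LARP1, which binds messages of ribosomal proteins, changed by -0.50, and the methylcytosine oxidases TET3 and TET1 by -0.48 and -0.42. Other named targets did not share the direction: GSK3B had -0.18, 0.35 and 0.06, PLAG1 -0.14, 0.63 and 0.12, and MCL1 a mean change of 0.02. EZH2 changed by -0.56.

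Interferon-stimulated genes, which cells switch on against viruses, had a large share of higher members. With cyclic loess that share was 59.5%, and the one of cytosolic ribosomal proteins 62.2%, against 19.1% of all genes tested under that scaling. Of 37 tested 20 were higher in all lines (54.1%, against 15.5% of all genes) and 2, IFITM3 and OASL, lower, and 17 had an unadjusted p under 0.05 in the higher direction (limma). The median was 0.24. By line it was 0.31 (Namalwa), 0.31 (Raji) and 0.10 (Ramos), and without Namalwa 22 were higher and 2 lower. IFIT1 had a mean change of 1.25 (0.82 without Raji), from 4.44, 3.78 and 4.79 to 5.85, 5.88 and 5.03. Its Raji empty level lay below the level minimum, and its Ramos pair differed by 0.24. RNF213, a large ubiquitin ligase, went from 5.84, 5.86 and 6.49 to 6.83, 6.85 and 6.93, with no overlap and a change of 0.81 (SE 0.13). With the mean of all its probe sets the change was 0.40, and 1 of 6 others moved the opposite way. ISG15, a ubiquitin-like protein, was at 7.57, 9.03 and 7.48 without and 8.72, 9.53 and 7.68 with miR26a, a change of 0.62 that was 0.35 without Namalwa, and its protease USP18 changed by 0.60. IRF9, the DNA-binding part of the factor that type I interferon activates, changed by 0.69. Not all members went along: IFIH1 and RIGI, which sense viral RNA, had 0.30 and 0.15 in Raji and -0.25 and -0.64 in Ramos.

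Innate sensors and adaptors had 10 of 20 members higher (50%) and 1, TIRAP, lower, with a median of 0.11. Beside TLR1, the endosomal receptors TLR9, which reads unmethylated DNA, and TLR7, which reads RNA, changed by 0.51 and 0.42 (TLR7 by 0.28 without Raji), and LY86, a partner of the receptor CD180, by 0.42. The adaptors MYD88 and MAVS had 0.06 each. Antigen presentation differed between the lines. Of 16 class II genes 4 were higher in all lines (25%) and 0 lower, but the medians of Namalwa, Raji and Ramos were 0.48, -0.14 and 0.29. HLA-DRA had 0.81, -0.29 and 0.49. HLA-DQA1 had 1 sign in all lines, 1.63, 0.28 and 0.69, but its Raji levels of 3.49 and 3.77 lay below the level minimum. CTSS, the protease that trims the invariant chain, changed by 0.54, or 0.36 without Namalwa and 0.34 with the mean of all probe sets. Class I genes had 7 of 19 higher (36.8%) and 3 lower. Their line medians were 0.31 (Namalwa), 0.02 (Raji) and 0.05 (Ramos), and without Namalwa 8 were higher and 4 lower. HLA-E changed by 0.37, or 0.17 without Namalwa and 0.22 with the mean of all probe sets, while the peptide transporter TAP1 had -0.24. The HLA genes are close relatives and cross-hybridisation cannot be told apart from their own signal here.

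**Figure D4:**
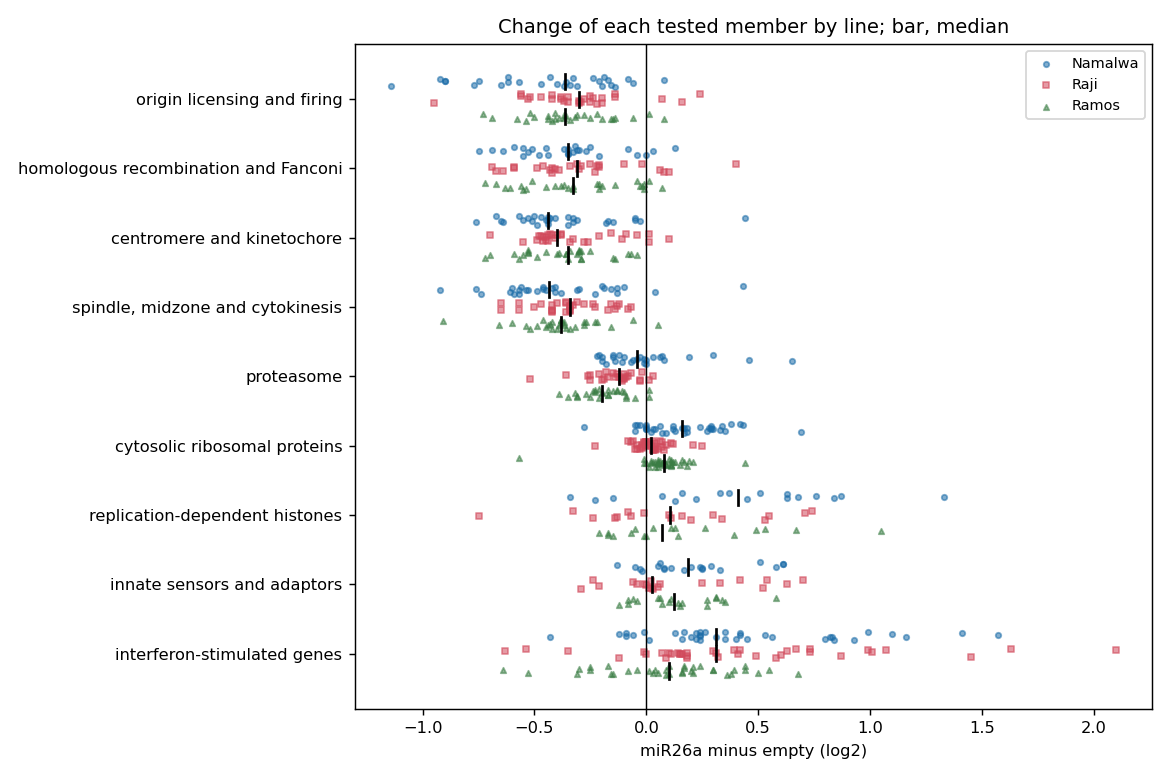
Change of every tested member of 9 gene lists in each line (points, miR26a minus empty, log2) with the median of each line as a bar. Line medians lie between -0.30 and -0.44 in the 4 upper lists, between -0.20 and 0.16 for the proteasome and ribosomal proteins, and at 0.31, 0.31 and 0.10 for interferon-stimulated genes.

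Genes tied to a resting state had a modest share of higher members. In the list of TXNIP, FOXO targets and quiescence 9 of 30 were higher (30%) and 3 lower, with a median of 0.07. YPEL5 changed by 0.55, PIK3IP1, which restrains PI3-kinase, by 0.50 (0.25 with the mean of all probe sets) and SESN1, which restrains mTORC1, by 0.38. FOXO1 was lower, at -0.27 (-0.13 without Namalwa), and CDKN1B (p27) had -0.39 in Namalwa against 0.31 and 0.42 in the other lines. Of 25 p53 targets 9 were higher (36.0%) and 4 lower. CDKN1A (p21), which blocks cyclin-dependent kinases, went from 7.85, 5.31 and 7.65 to 8.23, 5.82 and 8.18, and PLK3 and the apoptosis gene PMAIP1 had -0.39 and -0.31 (for PMAIP1 -0.19 without Raji). Among apoptosis regulators 11 of 32 were lower (34.4%) and 6 higher. BID, which links death receptors to mitochondria, had nearly equal changes of -0.53, -0.43 and -0.51, while MCL1, BCL2 and BCL2L1 had 0.02, 0.04 and 0.01.

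Lysosomal genes had 13 of 33 higher (39.4%) and 3 lower, with a median of 0.08, and beside CTSS the cathepsins CTSH and CTSB changed by 0.36 and 0.28. CTSH had 0.16 without Ramos. Autophagy genes had 11 of 32 higher (34.4%) and 4 lower. GABARAPL1 and GABARAP, which coat the autophagosome, changed by 0.41 (0.26 with the mean of all probe sets) and 0.30 and ATG14 by 0.36. Of 39 genes of oxidative phosphorylation 11 were higher (28.2%) and 2 lower, with line medians of 0.15, -0.01 and 0.04 in the order Namalwa, Raji, Ramos. Without Namalwa 11 were higher and 9 lower, near the background of 25.5% and 30.3%. With cyclic loess 17 were higher (43.6%, against 19.1% of all genes under that scaling). Counts near the background, with a median within 0.04 of 0, were found for glycolysis (4 lower and 3 higher of 24), the actin cytoskeleton (7 and 4 of 38), adhesion genes (4 and 4 of 26), B-cell receptor signalling (5 and 5 of 25), germinal centre and plasma cell genes (6 and 4 of 30) and the small RNA machinery (2 and 3 of 17). Within them LAMC1, a laminin chain, changed by 0.64 (0.42 with the mean of all probe sets) and the kinase SYK by 0.37, and both were higher in every line.

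Promoters were searched because members of these lists moved together. The windows ran from 250 bases before to 50 after the start of each gene in RefSeq (GRCh38.p14). The motifs, on both strands, were TTTGAA (the CHR element of mitotic genes), CCAAT, the E2F-type letters TTTGGCG and TTTCCCG, the E-box CACGTG, and the core of the interferon-stimulated response element (ISRE), read as GAAA, any 2 bases and GAAA. Stretches that end at the gene start are printed for 3 lower and 2 higher genes, with matches in capitals. CDC6 is shown for E2F-type and CCAAT letters (chr17:40287729-40287878, plus strand), NCAPG for CHR (chr4:17810879-17810978, plus strand) and DLGAP5 for CHR and CCAAT (chr14:55191586-55191735, minus strand). ISG15 is shown for the ISRE (chr1:1013347-1013496, plus strand) and H2BC12 for its run of CCAAT letters (chr6:27146859-27147058, minus strand).
CDC6: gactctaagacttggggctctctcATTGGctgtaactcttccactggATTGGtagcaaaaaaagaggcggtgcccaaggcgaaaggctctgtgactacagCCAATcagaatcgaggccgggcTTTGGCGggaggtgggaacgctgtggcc
NCAPG: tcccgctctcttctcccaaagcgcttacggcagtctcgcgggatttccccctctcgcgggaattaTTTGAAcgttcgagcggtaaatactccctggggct
DLGAP5: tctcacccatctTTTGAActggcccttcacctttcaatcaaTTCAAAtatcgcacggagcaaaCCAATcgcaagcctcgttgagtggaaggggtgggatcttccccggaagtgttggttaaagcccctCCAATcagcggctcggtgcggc
ISG15: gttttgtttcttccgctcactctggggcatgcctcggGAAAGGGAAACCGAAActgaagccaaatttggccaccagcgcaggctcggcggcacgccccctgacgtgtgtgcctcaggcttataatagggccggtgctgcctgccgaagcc
H2BC12: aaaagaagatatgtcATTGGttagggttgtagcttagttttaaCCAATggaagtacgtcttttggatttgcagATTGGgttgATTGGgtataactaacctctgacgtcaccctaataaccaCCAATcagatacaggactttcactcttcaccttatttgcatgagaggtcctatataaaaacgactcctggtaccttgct
The 2 ISRE matches of ISG15 overlap each other, and the letters CGGGAAA, an E2F-type match on the other strand, overlap the first of them.

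Of the 142 genes lower by at least 0.3 in every line, with the brighter array of each pair at the level minimum, 120 had a promoter window. CHR letters were in 24.2% of these windows, against 9.90% of the 9697 windows of all genes tested, and E2F-type letters in 25% against 9.07%. CCAAT letters were in 49.2% against 36.9%. The E-box, which MYC can bind, was in 9.17% against 10.2%. Of the 82 genes higher by at least 0.3 in every line, under the same level condition, 64 had a window. These held CHR letters in 12.5%, E2F-type letters in 7.81%, CCAAT in 35.9% and the ISRE core in 4.69%. The ISRE core was in 16 of 27 windows of tested interferon-stimulated genes (59.3%), against 2.69% of all genes tested, and in 9 of the 16 windows of those higher in all lines (56.2%). Interferon-stimulated genes higher in every line thus held it about as often as the whole list. These are counts of letters, not of bound sites, and genes of 1 function share promoter types whatever the condition.

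**Figure D5:**
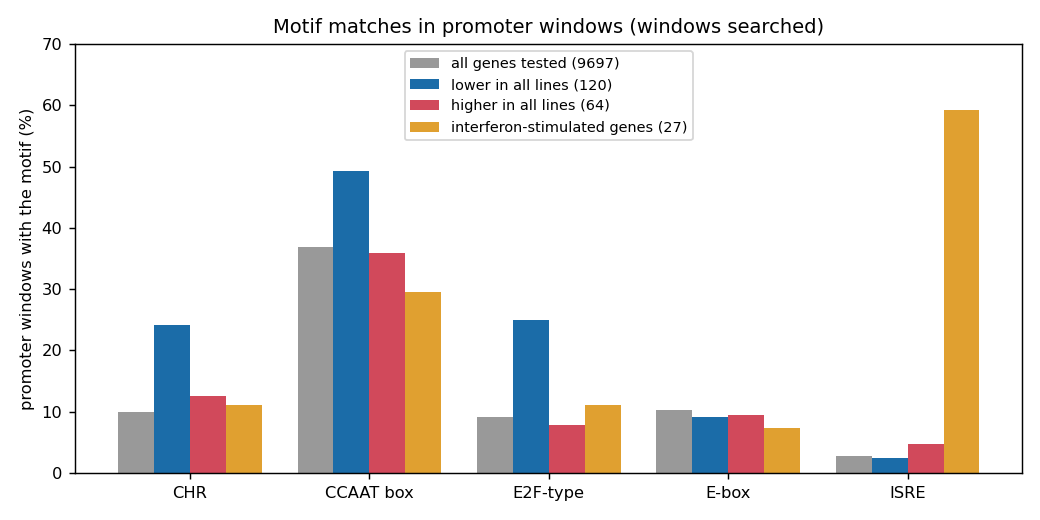
Share of promoter windows (%) that hold each motif, for all genes tested (9697 windows), genes lower (120) or higher (64) by at least 0.3 in every line, and interferon-stimulated genes tested (27). CHR and E2F-type letters stand highest in the lower genes (24.2% and 25%), and the ISRE core in the interferon-stimulated genes (59.3%).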

How the data were processed

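RNA of 6 cell line samples was measured on 1-colour Affymetrix U133 Plus 2.0 arrays. The deposited values are log2 intensities: per the labels' design text the authors normalised with RMA in BRB Array Tools, and the submitters' processing notes name GCOS and RMA. RMA gives the probes of all arrays the same distribution before it summarises probe sets, so a shift of all RNAs may not be visible. The table holds 54675 probe sets: 62 controls, 41091 with 1 gene symbol, 1801 with several (not named) and 11721 with none. Symbols were updated through Entrez IDs for 41037 with a RefSeq table (GRCh38.p14). The brightest probe set stood for each of 19775 genes.

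limma (3.58.1, R 4.3.3) was fitted for miR26a minus empty with the line as a block, since the labels pair samples by line. Its SEs, intervals and p-values use variances moderated over all genes tested, not the spread of each gene alone. A run on simulated data checked the code, not the changes named here. Deviations from the group means correlated within lines at 0.861 (Namalwa), 0.950 (Raji) and 0.917 (Ramos). Alternatives were no block, 2 other scalings, other level minimums, the mean of all probe sets, another prior and leaving out each line. The rule named, per direction, the 14 genes with the largest weakest change among those with 1 sign in all lines and the brighter array of each pair at the level minimum, and up to 4 per list; other members, and the promoter stretches, were chosen after their values were seen. Members and lists were chosen with earlier results of these data known. Seed sites in transcripts were not analysed here. The number of arrays limits the precision.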

Additional observations from a re-analysis of the deposited data

How the results depend on the processing

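Without the replicate block, which ignores the pairing by line, 42 genes were higher and 89 lower at an unadjusted p under 0.05 (limma), against 668 and 880. With only genes above the 75th percentile of levels, 7152 were tested in place of 12012, so the counts are smaller for that reason too. Of these 442 were higher at an unadjusted p under 0.05 (limma). In all lines 1162 were higher, 34 of them by at least 0.5 in the mean, and 50 genes passed an adjusted p of 0.05. An intensity trend and robust prior gave 102 such genes. With the mean of all probe sets 10460 genes were tested, and 41 were higher and 57 lower by at least 0.5 with 1 sign. In that setting 6 named list members changed sign: MSH6 (0.01), CASP2 (0.12), HSPA4 (0.02), CIITA (-0.05), ITGA4 (-0.00) and RPS12 (-0.01). Leaving out 1 line gave 0 to 203 genes past an adjusted p of 0.05 (203 without Raji, 23 without Ramos, 0 without Namalwa). Both remaining lines then shared the higher direction for 2893 to 3394 genes and the lower for 3552 to 3861, as only 2 signs must match, and 102 to 142 and 82 to 195 of these reached 0.5. The causes of these differences were not tested. Of 178 named genes and list members 61 passed with the trend and 54 without Raji. The 3 pairs limit what any setting can show.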
